A study of Rattus norvegicus with 5 samples.

Results

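The genes described here belong to the oligodendrocyte lineage, the glial cells that wrap central axons in myelin, and were read in lumbar dorsal horn, the sensory side of the spinal cord, of Sprague Dawley rats. They were a given list of 31 gene symbols, 17 of myelin and mature oligodendrocytes and 14 of oligodendrocyte precursors, and a gene was taken where its symbol matched a row of the count table. The table held 30 of the 31 among its 17321 rows; Lhfpl3 had no row under that symbol, so its level is not analysed here. All 30 passed the filter on low counts. The comparison is of CCI surgery with SHAM surgery, the control operation, in 3 CCI and 2 SHAM libraries of total RNA. Tissue came from lumbar levels L4 to L6, on day 9 after either operation. CCI stands in pain research for chronic constriction injury, a loose tie around a peripheral nerve that models neuropathic pain. All rats were of 1 strain. The labels give neither age nor sex, nor whether a library is 1 animal or a pool, so the p-values here measure only how these libraries vary, which may be technical.

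Oligodendrocytes arise from dividing precursors that carry the receptor PDGFRA and the proteoglycan NG2, encoded by Cspg4. On differentiation they switch on the transcription factor gene Myrf and then the genes of the sheath, among them that of myelin basic protein. In the spinal cord the white matter tracts are rich in myelin, and the dorsal horn is grey matter crossed by myelinated sensory axons. Several of the same genes are also used elsewhere: Schwann cells, which make the myelin of peripheral nerves, use Mbp, Mag, Mal, Cnp, Ugt8 and Fa2h, fibroblasts use Pdgfra, Vcan and Apod, and the mural cells of vessels use Cspg4.

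The libraries held 20053353 to 23673187 estimated counts, and the rows of ribosomal RNA took 15.98% of those of CCI 3 and 2.18% to 2.71% of the others. CCI 2 and CCI 3 stood apart from CCI 1 in genes of Schwann cells and fibroblasts, whose values are given beside the results that they touch. A gene is termed called where edgeR's quasi-likelihood test gave an adjusted p of 0.05 or less together with a 1.5-fold or larger difference. Of 13478 tested genes 384 were called, or 2.85%, with 2.59% higher and 0.26% lower in CCI. The median log2 fold change over all tested genes was 0.013. Of 18 listed markers of dorsal horn neurons 17 were in the table, none at 0 in a library. They summed to 1522 to 1589 CPM in CCI and 1491 to 1612 CPM in SHAM. Of the 17, 13 had a log2 fold change above 0, with a median of 0.21, and none was called. DESeq2 and edgeR's likelihood ratio test called Pdyn, higher, named here after its values were seen. CPM are counts relative to the size of the library, scaled between libraries by the trimmed mean of M-values.

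Myelin genes lay below their SHAM levels in CCI in nearly every case, and precursor genes lay on both sides, but no gene of either kind passed the test. Of the 17 myelin genes 16 had a log2 fold change below 0, with a median of -0.28, and 12 had every CCI library below every SHAM library, as did 18.1% of all tested genes. Of the 13 precursor genes 7 had a log2 fold change below 0, with a median of -0.0050, 3 had every CCI library below every SHAM library, and 1 had every CCI library above. None of the 30 genes was called by edgeR's quasi-likelihood test, its likelihood ratio test, DESeq2 or limma-voom, against 2.85% of all tested genes by the first. At an unadjusted p under 0.05 there were 9 myelin genes and 1 precursor gene, all 10 lower in CCI and none higher. Estimates below are log2 fold changes of CCI over SHAM from edgeR's quasi-likelihood fit. In these bulk samples, fewer cells of a type and less RNA per cell cannot be told apart.

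Over all tested genes, 48.1% had a log2 fold change below 0, 18.6% had every CCI library above, and 6.32% had an unadjusted p under 0.05 in the lower direction and 9.65% in the higher. Myelin genes are abundant, so a second background was taken above a floor of level, without matching the level of each myelin gene. Among the 5710 tested genes with a mean level at or above that of Nkx6-2, the lowest of the 17, 58.2% had a log2 fold change below 0 and 25.9% had every CCI library below every SHAM library. Of the same genes 9.98% had an unadjusted p under 0.05 in the lower direction, and the median log2 fold change was -0.037. DESeq2 gave 5 of the 30 genes an adjusted p of at most 0.05, which were Cnp, Ermn, Mal, Mbp and Ugt8, all lower in CCI. All 5 were under a fold of 1.5 and so were not called; at any fold, 6.51% of all genes passed DESeq2 at that level.

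**Figure D1:**
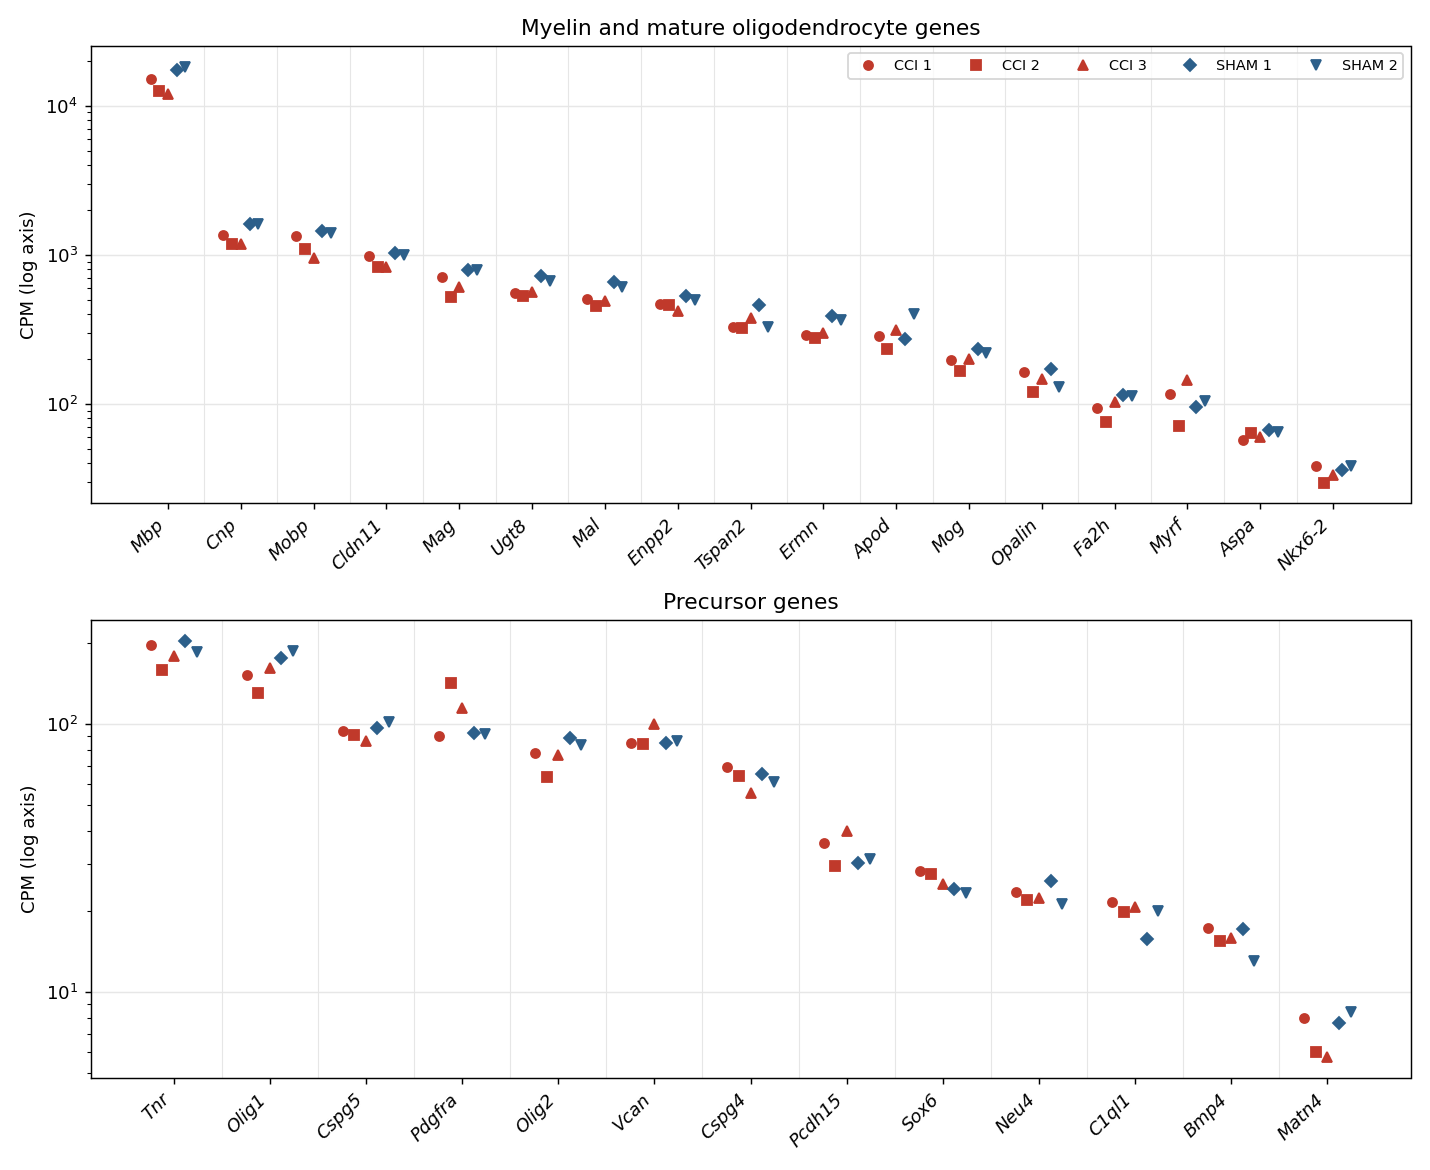
Level of each of the 30 genes in every library, as CPM on a log axis, with the 17 myelin genes above and the 13 precursor genes below, each ordered by its SHAM mean. Red marks are CCI 1 to CCI 3 and blue marks are SHAM 1 and SHAM 2; the red marks lie below both blue marks for 12 myelin genes and 3 precursor genes.

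Mbp encodes myelin basic protein, which holds the inner faces of the compact myelin membrane together. It stood at 15150.4, 12507 and 11984 CPM in CCI 1, CCI 2 and CCI 3, against 17459 and 18248 CPM in SHAM 1 and SHAM 2. Every CCI library was below both SHAM libraries, and CCI 2 and CCI 3 were lower than CCI 1. Its level was 13214 ± 1697 CPM in CCI (SD, n = 3) and 17854 ± 557 CPM in SHAM (SD, n = 2), 25.99% lower in CCI, and the difference did not pass edgeR's test. The estimate for Mbp was -0.43 on the log2 scale (SE 0.15, adjusted p = 0.206), with a 95% interval of -0.78 to -0.088. Mbp made up 64.1% to 67.01% of the summed counts of the 17 myelin genes in CCI and 66.9% to 68.7% in SHAM. In the deposited table scaled for transcript length its value was 8709 ± 1046 in CCI (SD, n = 3) and 11555 ± 295 in SHAM (SD, n = 2), and its mean over the 5 libraries ranked 4 of 17321 genes. The estimated counts of 8 members, Mbp, Mobp, Mog, Cspg5, Tnr, Bmp4, Neu4 and Olig2, are fractional. Their reads may fit other rows as well, so their values are uncertain.

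Mal, Ermn and Cnp had the lowest p-values of the 10 structural genes. Mal, a proteolipid of compact myelin, was at 503, 451 and 492 CPM in the CCI libraries, against 660.1 and 603 CPM in the SHAM libraries. The groups did not overlap, and CCI 1 was the nearest to SHAM. The estimate for Mal was -0.39 on the log2 scale (SE 0.11, adjusted p = 0.101). Ermn encodes ermin, a cytoskeletal protein of the mature oligodendrocyte. It was at 290.5, 276 and 298 CPM in CCI 1, CCI 2 and CCI 3, against 385 and 363 CPM in SHAM 1 and SHAM 2, with all 3 CCI libraries close together (log2 fold change -0.38, SE 0.097, adjusted p = 0.0859), the smallest adjusted p of the 30 genes. Cnp encodes the enzyme CNPase of the uncompacted cytoplasmic channels of the sheath, and was at 1356, 1179 and 1184 CPM in the CCI libraries, against 1616 and 1608 CPM in the SHAM libraries. Both SHAM libraries were nearly alike and lay above all CCI libraries. The estimate for Cnp was -0.38 on the log2 scale (SE 0.12, adjusted p = 0.145).

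Mag, Mog and Mobp completed the structural genes at an unadjusted p under 0.05. Mag encodes the myelin-associated glycoprotein that faces the axon, and it read 706, 521 and 607 CPM in CCI 1, CCI 2 and CCI 3, against 791 and 788 CPM in SHAM 1 and SHAM 2. The estimate for Mag was -0.37 on the log2 scale (SE 0.14, adjusted p = 0.223). CCI 2 was the lowest library and CCI 1 the nearest to SHAM. Mog, a glycoprotein of the outer surface of the sheath and a known autoantigen, read 197, 166 and 199.9 CPM in the CCI libraries, against 234 and 219 CPM in the SHAM libraries. The estimate for Mog was -0.27 on the log2 scale (SE 0.11, adjusted p = 0.284). Mobp, a small basic protein of compact myelin, read 1325, 1095 and 945 CPM in CCI 1, CCI 2 and CCI 3, against 1450.4 and 1397 CPM in SHAM 1 and SHAM 2. The estimate for Mobp was -0.34 on the log2 scale (SE 0.15, adjusted p = 0.302). For Mobp the lowest library was CCI 3, and CCI 1 was the nearest to SHAM 2.

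The remaining structural genes were nearer to 0. Cldn11, the claudin that seals the lamellae with tight junctions, was at 984, 822 and 828 CPM in the CCI libraries, against 1025 and 990.1 CPM in the SHAM libraries (log2 fold change -0.20, SE 0.12, adjusted p = 0.451), and CCI 1 lay just under SHAM 2. Tspan2, a tetraspanin of oligodendrocytes, was at 326, 319.7 and 375 CPM in CCI 1, CCI 2 and CCI 3, against 459 and 328 CPM in SHAM 1 and SHAM 2. The estimate for Tspan2 was -0.21 on the log2 scale (SE 0.15, adjusted p = 0.528). Its groups overlapped, with SHAM 2 among the CCI libraries. Opalin, a sialylated transmembrane protein of the sheath, was at 162, 119 and 146 CPM in the CCI libraries, against 171 and 129.96 CPM in the SHAM libraries (log2 fold change -0.079, SE 0.16, adjusted p = 0.845, 95% interval -0.45 to 0.29), and its groups overlapped widely.

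The genes that make or handle myelin lipids followed the structural genes in direction. Ugt8 encodes the transferase that makes galactosylceramide, the main glycolipid of myelin, and stood at 552, 524 and 564 CPM in CCI 1, CCI 2 and CCI 3, against 718 and 670.4 CPM in SHAM 1 and SHAM 2. Every CCI library was below both SHAM libraries, and the difference of 21.2% did not pass edgeR's test. The estimate for Ugt8 was -0.34 on the log2 scale (SE 0.10, adjusted p = 0.132). Fa2h, which adds the hydroxyl group to the fatty acids of these lipids, stood at 94.1, 75.4 and 102 CPM in the CCI libraries, against 114 and 112 CPM in the SHAM libraries. The estimate for Fa2h was -0.32 on the log2 scale (SE 0.13, adjusted p = 0.285). Both SHAM libraries were alike and CCI 2 was the lowest, without which the estimate was -0.20. Aspa, which frees acetate from N-acetylaspartate for lipid synthesis, stood at 56.9, 63.5 and 60.1 CPM in CCI 1, CCI 2 and CCI 3, against 66.7 and 64.3 CPM in SHAM 1 and SHAM 2. The estimate for Aspa was -0.12 on the log2 scale (SE 0.10, adjusted p = 0.578). Its groups did not overlap, but CCI 2 lay just under SHAM 2.

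Enpp2 encodes autotaxin, a secreted enzyme that makes lysophosphatidic acid, and was at 469.8, 462 and 416 CPM in the CCI libraries, against 529 and 499 CPM in the SHAM libraries. The estimate for Enpp2 was -0.19 on the log2 scale (SE 0.11, adjusted p = 0.406). Its groups did not overlap, and CCI 3 was the lowest library. Apod encodes apolipoprotein D, a carrier of lipids that Schwann cells and fibroblasts also make, and was at 284, 233 and 312 CPM in CCI 1, CCI 2 and CCI 3, against 271 and 400.3 CPM in SHAM 1 and SHAM 2. The estimate for Apod was -0.28 on the log2 scale (SE 0.19, adjusted p = 0.499). Its SHAM mean was set by SHAM 2: without that library the log2 fold change was 0.016, and without SHAM 1 it was -0.54.

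Both transcription factor genes of the mature cell overlapped between the groups. Myrf, the master regulator that turns on myelin genes, was at 116, 70.7 and 145 CPM in CCI 1, CCI 2 and CCI 3, against 95.7 and 105 CPM in SHAM 1 and SHAM 2. CCI 3 was the highest library and CCI 2 the lowest, so the CCI values spanned both SHAM values on either side. The estimate for Myrf was 0.14 on the log2 scale (SE 0.29, adjusted p = 0.856), with a 95% interval of -0.59 to 0.87. Without CCI 3 its log2 fold change was -0.11, and without CCI 2 it was 0.38. Nkx6-2, a homeobox factor of myelinating cells, was at 38.1, 29.5 and 33.1 CPM in the CCI libraries, against 35.8 and 38.1 CPM in the SHAM libraries (log2 fold change -0.14, SE 0.13, adjusted p = 0.628), with CCI 1 level with SHAM 2.

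**Figure D2:**
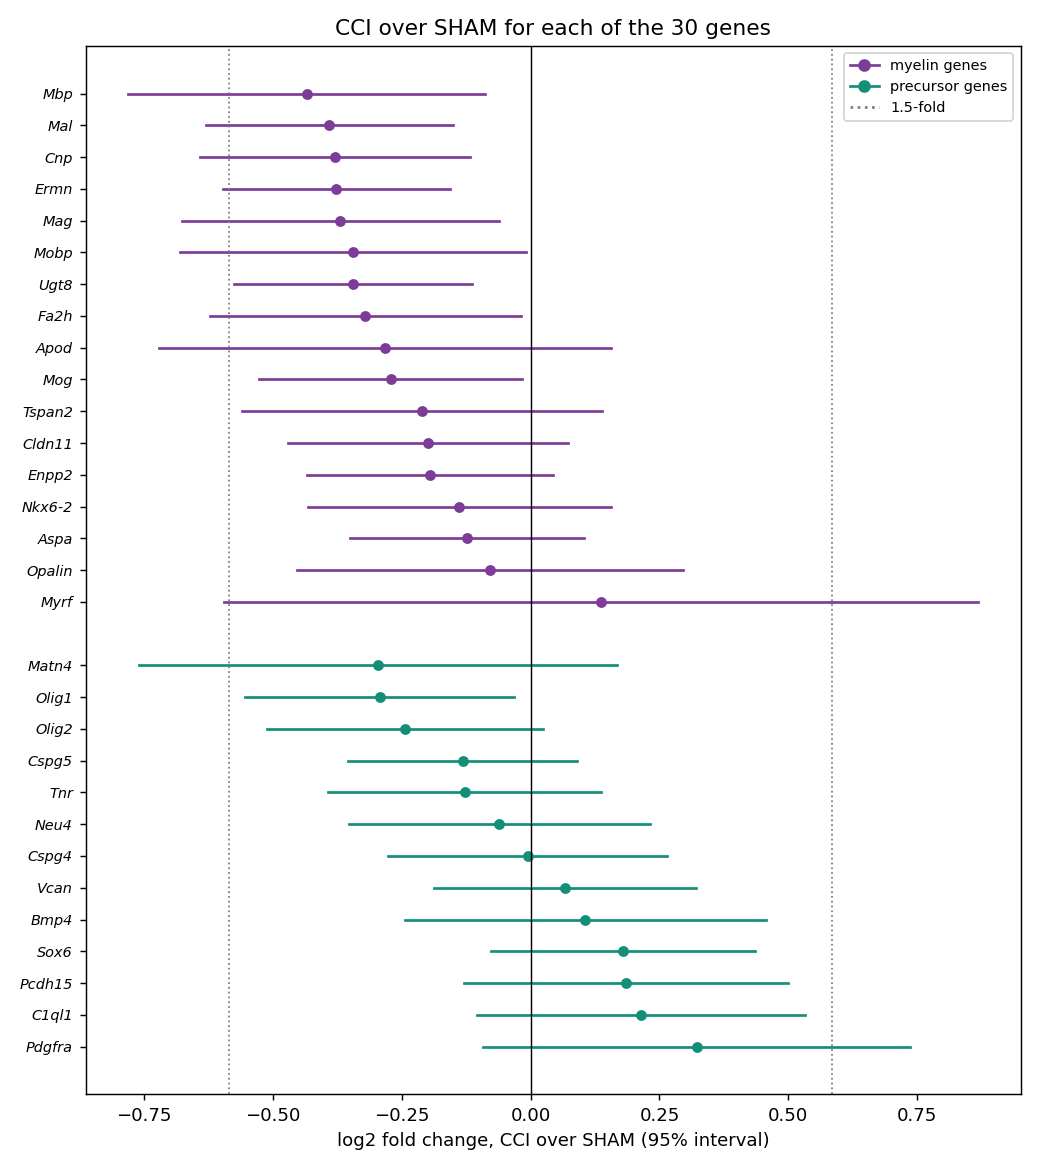
Log2 fold change of each gene, CCI over SHAM, from edgeR's quasi-likelihood fit, with its 95% interval as a line; the dotted lines mark 1.5-fold in either direction. Of the myelin genes (purple) 16 of 17 lie left of 0 and 9 have an interval that does not reach 0, while the precursor genes (green) lie at both sides and 1 has such an interval, Olig1.

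The size of a difference that these data allow can be read from the intervals. For 8 of the 17 myelin genes and 11 of the 13 precursor genes the 95% interval lay within 1.5-fold in both directions, as it did for 7915 of the 13478 tested genes. The log2 fold changes of the myelin genes ran from -0.43 for Mbp to 0.14 for Myrf, and those of the precursor genes from -0.30 for Matn4 to 0.32 for Pdgfra. No member reached a fold of 1.5 in either direction.

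Since most myelin genes lay on 1 side of 0, the sequence before their start sites is shown for the 3 myelin genes of lowest p with a single RefSeq entry (Mal, Ugt8 and Cnp), for the precursor gene with the highest fold change (Pdgfra), and for Mobp, chosen for its motif count. Each is 300 bases of the build GRCr8, 250 before the start and 50 after it, written 5′ to 3′ on the strand of the gene. Capitals mark, on either strand, ACAAAG or ACAATG, the core bound by SOX factors such as SOX10, or CAGCTG, an E-box that bHLH factors such as OLIG2 can bind. The 3 motifs were searched singly, and a base may count in more than 1. The stretches lie at chr3:135341374-135341673 on the minus strand for Mal, chr2:217007118-217007417 on the minus strand for Ugt8, chr10:86011254-86011553 on the plus strand for Cnp, chr8:128746982-128747281 on the plus strand for Mobp and chr14:33408467-33408766 on the minus strand for Pdgfra.
Mal: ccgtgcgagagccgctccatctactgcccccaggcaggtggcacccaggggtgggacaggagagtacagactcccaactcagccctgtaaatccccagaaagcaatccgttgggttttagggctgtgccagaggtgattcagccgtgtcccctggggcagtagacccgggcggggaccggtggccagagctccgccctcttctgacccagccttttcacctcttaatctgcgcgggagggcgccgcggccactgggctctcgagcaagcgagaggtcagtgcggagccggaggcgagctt
Ugt8: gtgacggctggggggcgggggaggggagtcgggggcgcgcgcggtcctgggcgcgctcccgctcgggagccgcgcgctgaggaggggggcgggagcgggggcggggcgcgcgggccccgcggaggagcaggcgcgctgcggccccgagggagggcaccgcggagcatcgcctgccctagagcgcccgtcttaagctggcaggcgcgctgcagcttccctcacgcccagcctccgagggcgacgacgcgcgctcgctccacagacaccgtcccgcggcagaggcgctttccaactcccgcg
Cnp: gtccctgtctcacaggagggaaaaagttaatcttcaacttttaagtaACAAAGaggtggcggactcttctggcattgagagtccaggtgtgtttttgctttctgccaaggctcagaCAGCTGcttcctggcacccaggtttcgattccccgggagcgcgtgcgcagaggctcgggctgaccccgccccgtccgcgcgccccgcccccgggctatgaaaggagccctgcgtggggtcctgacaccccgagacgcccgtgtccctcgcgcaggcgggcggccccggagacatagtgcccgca
Mobp: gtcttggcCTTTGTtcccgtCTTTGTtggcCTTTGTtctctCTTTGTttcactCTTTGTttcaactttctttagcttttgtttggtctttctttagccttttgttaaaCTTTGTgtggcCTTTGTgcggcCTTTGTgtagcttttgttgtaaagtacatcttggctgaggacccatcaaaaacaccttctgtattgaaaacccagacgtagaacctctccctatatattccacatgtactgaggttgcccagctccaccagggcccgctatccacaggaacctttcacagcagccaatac
Pdgfra: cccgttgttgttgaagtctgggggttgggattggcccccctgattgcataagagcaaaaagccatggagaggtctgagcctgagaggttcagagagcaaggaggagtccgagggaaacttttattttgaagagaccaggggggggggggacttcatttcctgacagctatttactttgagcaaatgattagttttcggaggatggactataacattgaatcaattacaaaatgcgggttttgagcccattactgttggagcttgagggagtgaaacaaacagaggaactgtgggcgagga

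Of the 31 listed genes 23 had a promoter entry in RefSeq, 13 of myelin and 10 of precursors, with 25 entries in all because Mbp and Vcan have a pair each. ACAAAG was in 6 of 14 myelin and 2 of 11 precursor entries, against 18.8% of all 33469 promoters. ACAATG was in 4 of 14 and 1 of 11, against 13.2% of all promoters. CAGCTG was in 5 of 14 and 4 of 11, against 15.1% of all promoters. The Cnp promoter held 1 ACAAAG and 1 CAGCTG, that of Mobp held 8 copies of ACAAAG on the opposite strand, and those of Mal, Ugt8 and Pdgfra held none of the 3 motifs. The precursor entries include that of Lhfpl3, which holds CAGCTG. A match is only a description of these letters.

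Among the precursor surface genes, Pdgfra had the highest fold change and the widest spread in CCI. It encodes the receptor for platelet-derived growth factor that keeps precursors dividing, and stood at 89.97, 142 and 115 CPM in CCI 1, CCI 2 and CCI 3, against 92.96 and 92.1 CPM in SHAM 1 and SHAM 2. CCI 2 and CCI 3 were above both SHAM libraries and CCI 1 was below both. The difference did not pass edgeR's test (log2 fold change 0.32, SE 0.18, adjusted p = 0.423, 95% interval -0.092 to 0.74), and without CCI 2 and CCI 3 the log2 fold change was -0.053. The 16 fibroblast markers, none at 0, summed to 119, 797 and 676 CPM in CCI 1, CCI 2 and CCI 3, against 129.5 and 159.8 CPM in SHAM 1 and SHAM 2, so the order of the libraries in Pdgfra was close to that in the fibroblast sum; the part of fibroblast RNA in the Pdgfra level was not tested.

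Cspg4, the NG2 proteoglycan of precursors and mural cells, stood at 69.1, 63.9 and 55.2 CPM in the CCI libraries, against 65.1 and 60.9 CPM in the SHAM libraries. The estimate for Cspg4 was -0.0050 on the log2 scale (SE 0.12, adjusted p = 0.988). Its values overlapped fully, and mural cell markers summed to 254 to 348 CPM in CCI and 268 to 301 CPM in SHAM. Cspg5, or neuroglycan C, stood at 93.9, 91.2 and 86.4 CPM in CCI 1, CCI 2 and CCI 3, against 96.5 and 102 CPM in SHAM 1 and SHAM 2, with small gaps and no overlap. The estimate for Cspg5 was -0.13 on the log2 scale (SE 0.098, adjusted p = 0.539). Pcdh15, a cadherin of precursors that is known for its part in hair cells of the ear, stood at 35.9, 29.7 and 39.9 CPM in the CCI libraries, against 30.3 and 31.4 CPM in the SHAM libraries. The estimate for Pcdh15 was 0.19 on the log2 scale (SE 0.14, adjusted p = 0.539). CCI 2 was the lowest library for Pcdh15 and CCI 3 the highest; without CCI 2 its estimate was 0.30 and without CCI 3 it was 0.082.

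The matrix and secreted genes of precursors overlapped between the groups in all 6 cases. Tnr, which encodes the matrix glycoprotein tenascin-R, was the most abundant by count, at 196, 159 and 179 CPM in CCI 1, CCI 2 and CCI 3, against 204 and 185 CPM in SHAM 1 and SHAM 2. The estimate for Tnr was -0.13 on the log2 scale (SE 0.12, adjusted p = 0.618). Vcan, the large proteoglycan versican, was at 85.1, 84.2 and 100.1 CPM in the CCI libraries, against 85.1 and 86.2 CPM in the SHAM libraries (log2 fold change 0.067, SE 0.11, adjusted p = 0.798), with only CCI 3 above the rest. Matn4, which encodes matrilin-4, was the lowest of the 30 genes at 8.01, 5.95 and 5.73 CPM in CCI 1, CCI 2 and CCI 3, against 7.68 and 8.44 CPM in SHAM 1 and SHAM 2. The estimate for Matn4 was -0.30 on the log2 scale (SE 0.20, adjusted p = 0.507). These levels rest on 108 to 173 counts per CCI library and 169 counts in each SHAM library. CCI 1 lay with the SHAM libraries.

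C1ql1, a secreted C1q-like protein that precursors share with some neurons, was at 21.7, 19.9 and 20.8 CPM in the CCI libraries, against 15.8 and 20.04 CPM in the SHAM libraries (log2 fold change 0.21, SE 0.14, adjusted p = 0.484), with CCI 2 level with SHAM 2. Without SHAM 1 the C1ql1 estimate was 0.052, and without SHAM 2 it was 0.38. Bmp4, a growth factor of the committed precursor, was at 17.3, 15.6 and 15.9 CPM in CCI 1, CCI 2 and CCI 3, against 17.1 and 13.04 CPM in SHAM 1 and SHAM 2. The estimate for Bmp4 was 0.11 on the log2 scale (SE 0.15, adjusted p = 0.766). Neu4, a sialidase of newly committed cells, was at 23.7, 21.99 and 22.4 CPM in the CCI libraries, against 26.05 and 21.3 CPM in the SHAM libraries. The estimate for Neu4 was -0.061 on the log2 scale (SE 0.13, adjusted p = 0.851). For both Bmp4 and Neu4 all CCI values lay between the SHAM values or just past 1 of them.

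The lineage factor genes Olig1 and Olig2 lay below SHAM in every CCI library, and Sox6 lay above. Olig1 and Olig2 encode the bHLH factors that specify the lineage and stay on in mature cells, and they are direct neighbours on chromosome 11 of GRCr8. Olig1 stood at 152, 131 and 162 CPM in CCI 1, CCI 2 and CCI 3, against 176 and 187 CPM in SHAM 1 and SHAM 2, with no overlap between the groups. The estimate for Olig1 was -0.29 on the log2 scale (SE 0.12, adjusted p = 0.257). Olig2 stood at 78.1, 63.7 and 76.8 CPM in CCI 1, CCI 2 and CCI 3, against 88.9 and 83.5 CPM in SHAM 1 and SHAM 2, likewise with no overlap. The estimate for Olig2 was -0.24 on the log2 scale (SE 0.12, adjusted p = 0.359). In both genes CCI 2 was the lowest library, and without it the Olig2 estimate was -0.15. Sox6, which holds precursors back from differentiation, was the only member with every CCI library above every SHAM library, at 28.3, 27.5 and 25.3 CPM in the CCI libraries, against 24.3 and 23.4 CPM in the SHAM libraries. The estimate for Sox6 was 0.18 on the log2 scale (SE 0.11, adjusted p = 0.469), with a 95% interval of -0.077 to 0.44.

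**Figure D3:**
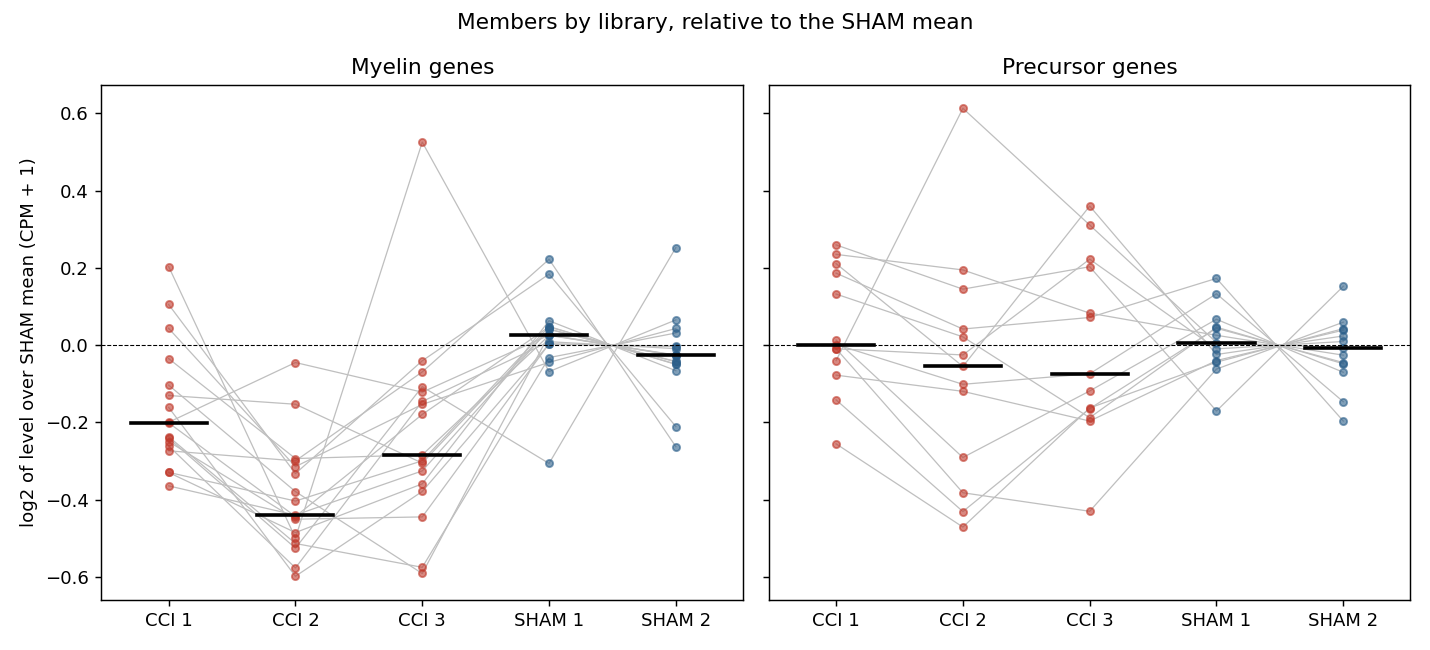
Level of each gene in each library relative to its SHAM mean, on a log2 scale of CPM + 1; grey lines join 1 gene across libraries and black bars are medians. The myelin medians are -0.20, -0.44 and -0.28 in CCI 1, CCI 2 and CCI 3, and the precursor medians are 0.0017, -0.055 and -0.074.

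Set against each other, precursor and myelin genes differed in every CCI library from both SHAM libraries in the same direction. The mean log2(CPM + 1) of the 17 myelin genes was 8.55, 8.31 and 8.48 in CCI 1, CCI 2 and CCI 3, against 8.73 and 8.68 in SHAM 1 and SHAM 2. For the 13 precursor genes it was 5.65, 5.54 and 5.60 in CCI, against 5.62 and 5.59 in SHAM, and there the groups overlapped. The precursor mean minus the myelin mean was -2.85 ± 0.070 in CCI (SD, n = 3) and -3.10 ± 0.010 in SHAM (SD, n = 2), so the distance of precursor genes below myelin genes was 0.25 smaller in CCI. Only relative levels within a library enter this distance, so it does not depend on the scaling between libraries except through the pseudocount. It is a description of chosen genes and carries no test.

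This difference between the groups was smaller without a chosen set of genes that other cells also express. Without 9 myelin genes that Schwann cells, fibroblasts or other cells use (Mbp, Mag, Mal, Cnp, Ugt8, Fa2h, Tspan2, Apod and Enpp2) and 4 such precursor genes (Pdgfra, Cspg4, Vcan and Bmp4), it was 0.12. The set holds Mbp, Mal and Cnp, the 3 genes with the lowest fold changes. It is not complete, since C1ql1, which some neurons share, was not left out. From CCI 1 against both SHAM libraries, with all members, the difference was 0.20. Of the 17 myelin genes, 13 were below both SHAM libraries in CCI 1, 17 in CCI 2 and 13 in CCI 3, and of the 13 precursor genes 4, 7 and 6 were.

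By summed level, the myelin genes took 2.26%, 1.89% and 1.87% of scaled counts in CCI 1, CCI 2 and CCI 3, against 2.61% and 2.66% in SHAM 1 and SHAM 2. Without Mbp the sum was 0.686% ± 0.0541 in CCI (SD, n = 3) and 0.847% ± 0.0217 in SHAM (SD, n = 2). The precursor genes took 0.0886% ± 0.00272 in CCI (SD, n = 3) and 0.0922% ± 0.00107 in SHAM (SD, n = 2), with overlap. Per transcript length, in the deposited table, the most abundant precursor gene was Olig1 at 90.6 ± 9.64 in CCI (SD, n = 3) and 109 ± 4.07 in SHAM (SD, n = 2), and the next was Cspg5 at 61.6 ± 2.88 in CCI (SD, n = 3) and 66.7 ± 2.07 in SHAM (SD, n = 2). The least abundant of all was Matn4 at 3.72 ± 0.681 in CCI (SD, n = 3) and 4.50 ± 0.279 in SHAM (SD, n = 2), and Pcdh15 at 8.003 ± 1.20 in CCI (SD, n = 3) and 6.89 ± 0.161 in SHAM (SD, n = 2) was the nearest above it.

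Levels of genes of other cells differed between the libraries. The 14 Schwann cell markers in the table, none at 0 in a library, summed to 201, 434 and 869 CPM in CCI 1, CCI 2 and CCI 3, against 197 and 205 CPM in SHAM 1 and SHAM 2, and 13 of 14 had a log2 fold change above 0. None was called by any of the 4 tools, and 3 had an unadjusted p under 0.05, all higher. Prx, which encodes the periaxin of Schwann cells, stood at 3.19, 25.4 and 55.5 CPM in CCI 1, CCI 2 and CCI 3, against 3.41 and 5.35 CPM in SHAM 1 and SHAM 2. CCI 1 lay at the SHAM level in the Schwann sum, and the median of its myelin genes was -0.20 from the SHAM mean on the log2 scale. Of 6 members that Schwann cells also express, Mbp, Mag, Mal and Cnp were lower in both CCI 2 and CCI 3 than in CCI 1. Ugt8 and Fa2h were lower in CCI 2 and higher in CCI 3 than in CCI 1. The part of Schwann cell RNA in these levels was not tested.

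Several estimates were over 1.5 times smaller in fits that set CCI 2 and CCI 3 apart. With both left out, which leaves CCI 1 alone in its group and takes the spread from SHAM, Mbp was at -0.25, Mag at -0.17, Mobp at -0.12 and Cldn11 at -0.047 on the log2 scale. With the Schwann cell level in the model, Mbp was at -0.27, Mag at -0.24, Mobp at -0.10, Cldn11 at -0.063 and Pdgfra at 0.094. The estimates of Mal, Ermn, Cnp and Ugt8 moved by less than 1.5 times in both fits. The fibroblast genes Col1a1 and Col3a1, which encode fibrillar collagens, stood at 11.1, 48.3 and 88.3 CPM in the CCI libraries, against 10.6 and 19.6 CPM in the SHAM libraries for Col1a1 and 19.3, 417 and 265 CPM in the CCI libraries, against 22.2 and 36.8 CPM in the SHAM libraries for Col3a1.

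Neuronal and microglial genes also differed between the groups. The 7 motor neuron markers in the table, none at 0, summed to 378, 129.6 and 243 CPM in CCI 1, CCI 2 and CCI 3, against 832 and 574 CPM in SHAM 1 and SHAM 2, and all 7 had a log2 fold change below 0. Motor neurons lie in the ventral horn, and 4 of the 7 were called, lower. Of the 13 microglia markers 10 were called, higher, and they summed to 1231, 1338 and 1179.96 CPM in CCI 1, CCI 2 and CCI 3, against 371 and 422 CPM in SHAM 1 and SHAM 2, with Aif1, which encodes the microglial protein IBA1, at 37.8, 48.4 and 31.2 CPM in CCI 1, CCI 2 and CCI 3, against 7.001 and 12.3 CPM in SHAM 1 and SHAM 2. The estimate for Aif1 was 2.03 on the log2 scale (SE 0.29, adjusted p = 0.0169). Of the 10 astrocyte markers 1 was called, higher, and 6 had a log2 fold change below 0. They summed to 9768, 8302 and 8044 CPM in the CCI libraries, against 6323 and 6270.1 CPM in the SHAM libraries. Their median log2 fold change was -0.050, with 3 genes lower and 2 higher at an unadjusted p under 0.05 in edgeR's test. The likelihood ratio test, DESeq2 and limma-voom each called only Gfap, higher, named here after its values were seen. The water channel gene Aqp4, with fractional counts, was at 0.29 on the log2 scale and was not called by edgeR's test (adjusted p = 0.236). The 10 general neuron markers summed to 6952, 5429 and 5559.8 CPM in CCI 1, CCI 2 and CCI 3, against 11539 and 9594 CPM in SHAM 1 and SHAM 2, and 8 had a log2 fold change below 0. Of these 10 genes 2 were called, lower, the neurofilament genes Nefl at -1.30 (SE 0.24, adjusted p = 0.0342) and Nefm at -1.42 (SE 0.22, adjusted p = 0.0190) on the log2 scale, named here after their values were seen. The median of the list was -0.16, and the synaptic gene Snap25, with fractional counts, stood at -0.21. Whether these other cells enter the myelin values was not tested.

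**Figure D4:**
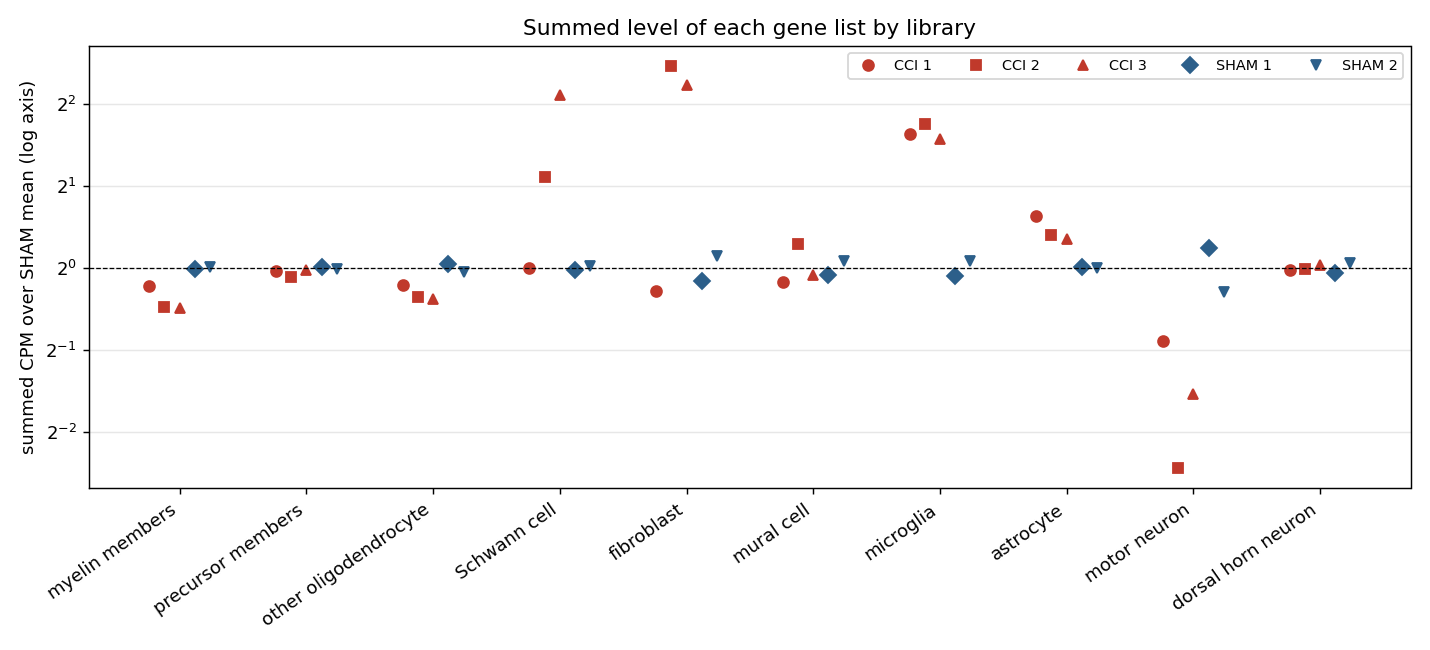
Summed CPM of each gene list in each library over its SHAM mean, on a log2 axis, with red marks for CCI and blue marks for SHAM. Myelin genes and other oligodendrocyte genes lie below 1 in all 3 CCI libraries, precursor genes lie near 1, Schwann cell and fibroblast sums are high in CCI 2 and CCI 3 only, and motor neuron sums are lower in all 3 CCI libraries.

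Most other genes of the mature oligodendrocyte also lay below 0. Of 52 further listed genes 45 were in the table and all were tested: 42 had a log2 fold change below 0, and 32 had every CCI library below every SHAM library. None was called by edgeR's quasi-likelihood or likelihood ratio test, DESeq2 or limma-voom, and 22 had an unadjusted p under 0.05, all lower in CCI. Their median log2 fold change was -0.26. Over all tested genes, 48.1% were below 0, 18.1% had every CCI library below and 6.32% had such a p in the lower direction. Among genes at or above the level of Nkx6-2, these shares were 58.2%, 25.9% and 9.98%. Sox10, the factor that works with MYRF, stood at 75.7, 56.97 and 64.4 CPM in the CCI libraries, against 80.6 and 83.04 CPM in the SHAM libraries. The estimate for Sox10 was -0.32 on the log2 scale (SE 0.13, adjusted p = 0.274). The smallest p-values were those of Ppp1r14a, which encodes an inhibitor of a protein phosphatase (log2 fold change -0.47, SE 0.13, adjusted p = 0.117), and Tmem125. The estimate for Tmem125 was -0.44 on the log2 scale (SE 0.12, adjusted p = 0.118).

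Other genes of precursors and of newly formed oligodendrocytes were spread around 0. Of 25 tested further precursor genes, 11 were below 0 and 14 above, with a median log2 fold change of 0.022. At an unadjusted p under 0.05, 5 were higher and 2 lower in edgeR's test, as were 9.65% and 6.32% of all tested genes. For 7 every CCI library lay above every SHAM library and for 4 below, as for 18.6% and 18.1% of all tested genes. Of the 25, edgeR's test called 1, lower. That was Rlbp1, a retinoid-binding protein gene also used by other glia, at 57.1, 47.2 and 41.8 CPM in CCI 1, CCI 2 and CCI 3, against 87.1 and 77.2 CPM in SHAM 1 and SHAM 2 (log2 fold change -0.76, SE 0.14, adjusted p = 0.0225); its estimated counts are fractional and its value uncertain. Of 16 tested genes of newly formed cells, 8 were below 0 and none was called by any of these tools, while 3 lower and 1 higher had an unadjusted p under 0.05. Their median was -0.0019. The smallest p-values there were those of Man1a1, a Golgi mannosidase gene, at 0.31, and Enpp6, a choline phosphodiesterase gene of cells beginning to myelinate, at -0.27, the second with fractional counts.

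Signals known to act on the lineage gave a few calls, where 2.59% of all tested genes were called higher and 0.26% lower. Of 19 tested ligands 1 rose and 1 fell: Tgfb1, the transforming growth factor gene, rose to 4.49, 4.29 and 7.58 CPM in the CCI libraries, against 1.68 and 1.60 CPM in the SHAM libraries (log2 fold change 1.72, SE 0.33, adjusted p = 0.0266), and Sema3a, a semaphorin that repels axons and precursors, fell to 10.3, 8.42 and 9.12 CPM in the CCI libraries, against 24.05 and 17.9 CPM in the SHAM libraries. The estimate for Sema3a was -1.18 on the log2 scale (SE 0.17, adjusted p = 0.00658). Of 25 tested receptors 4 rose and none fell. They were Axl, a receptor for GAS6, at 65.5, 92.3 and 77.1 CPM in the CCI libraries, against 45.8 and 40.6 CPM in the SHAM libraries (log2 fold change 0.86, SE 0.15, adjusted p = 0.0204), Tgfbr2 (log2 fold change 0.83, SE 0.16, adjusted p = 0.0245), Tgfbr1 (log2 fold change 0.85, SE 0.17, adjusted p = 0.0431) and Osmr, the oncostatin M receptor. The estimate for Osmr was 1.21 on the log2 scale (SE 0.24, adjusted p = 0.0340). Each is also made by cells outside the lineage, and the cell of origin was not measured. By the likelihood ratio test and DESeq2 the receptor gene Nrp1 was called too, higher. The likelihood ratio test alone also called the ligand gene Bmp7, higher. Both are named here after their values were seen.

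In fits with fewer libraries or 1 more term, some of the 7 calls were lost, while every estimate kept its direction. In edgeR's test with every library, Tgfbr1 was not called under RLE scaling (adjusted p = 0.0545) or without ribosomal rows (adjusted p = 0.0525). Nor was Tgfbr1 called by limma on the deposited TPM table with a pseudocount of 0.5 (adjusted p = 0.0550). Without SHAM 1 none was called, with adjusted p of 0.150 to 0.346, and without SHAM 2 only Sema3a was. Either fit has 1 SHAM library, assumed to vary like the CCI libraries. The estimates without SHAM 1 were 1.76 for Tgfb1, 0.95 for Axl, 1.50 for Osmr and 1.03 for Tgfbr1, larger than with both SHAM libraries. Those of Sema3a (-0.95), Rlbp1 (-0.67) and Tgfbr2 (0.74) were smaller in size. The lost calls alone do not show which differences were smaller. Without CCI 3, Axl, Tgfbr2 and Osmr were not called, with adjusted p of 0.0598 to 0.0753. With the Schwann cell level in the model none was called, with adjusted p of 0.0838 to 0.260. That fit has 1 residual degree of freedom fewer, and all 7 estimates were smaller in size. They were -1.03 for Sema3a, 1.18 for Osmr, 0.72 for Axl, 1.34 for Tgfb1, 0.69 for Tgfbr2, 0.62 for Tgfbr1 and -0.52 for Rlbp1. That of Rlbp1 was under a fold of 1.5, as was its estimate of -0.54 without CCI 2 and CCI 3. Limma-voom called 5 of the 7, leaving out Tgfb1 and Osmr. With both CCI 2 and CCI 3 left out, 3 were called.

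Among 9 tested targets of these pathways none was called by edgeR's quasi-likelihood test or limma-voom, and Id3 was called, higher, by DESeq2 and the likelihood ratio test. At an unadjusted p under 0.05 there were 2 higher and 1 lower. The 2 of lowest p were Id3 at 0.74 and Id2 at -0.40, both inhibitors of bHLH factors. Of 17 tested genes of sphingolipid synthesis and breakdown none was called by any of the 4 tools and 1 had an unadjusted p under 0.05, higher, with a median of -0.0090. Of these, Hexa, which encodes a subunit of a lysosomal enzyme of ganglioside breakdown, stood at 0.23. For Id3, Id2 and Hexa, edgeR's test gave adjusted p of 0.0844 (Id3), 0.160 (Id2) and 0.315 (Hexa).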

How the data were processed

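Libraries were grouped by their treatment label and numbered within a group by accession order, which pairs nothing. The authors deposited 1 table of estimated counts by gene symbol made, per the submitters' processing notes, with kallisto 0.44.0 and build rn6; their annotation is not given in the sources used here. Another deposited table, named TPM, is read here as a signal, since its column sums differ; the series' design text names TMM scaling and edgeR. Genes with counts over 0.01 from a whole number in a library, 18.2% of those tested, may take reads that also fit another row, so their values are uncertain.

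Counts were rounded. Rows that passed filterByExpr (minimum count 10) were fitted in edgeR 4.0.16 under R 4.3.3 with TMM, robust glmQLFit and a two-sided glmQLFTest on 3 residual degrees of freedom, and p-values were adjusted by Benjamini-Hochberg over all 13478. The call thresholds are those of the series. Each SE is the log2 fold change over the root of F, with intervals from the moderated degrees of freedom. The code was tested on simulated data. There it called 25.4% of 67 genes changed 1.5-fold, 70.1% of 67 changed 2-fold and 95.5% of 66 changed 4-fold. It also called 20 unchanged genes. Total counts per library are in the report.

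Members and lists were chosen with earlier results of these data known. Named genes are all members, up to 4 called genes of each related list by p (otherwise the 2 of lowest p), and 10 chosen markers; some of the genes so named are not reported here. Alternatives were edgeR's likelihood ratio test, DESeq2 1.42.0, limma-voom (limma 3.58.1), RLE and upper quartile scaling, other count filters, the authors' TPM table as log2(value + 0.5) or log2(value + 0.1) in limma, removal of ribosomal rows or libraries, and a Schwann covariate. Promoters are RefSeq's, on GRCr8, a later build than that of the counts.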

Additional observations from a re-analysis of the deposited data

How the results depend on the processing

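None of the 30 genes was called in edgeR's quasi-likelihood fit or in its 17 alternatives; 10 had an unadjusted p under 0.05, and 2 to 11 in the alternatives. The median log2 fold change of the myelin genes ran from -0.34 to -0.20 over the 17, and that of the precursor genes from -0.085 to 0.052. The difference between the groups in precursor minus myelin level, 0.25, ran from 0.20 to 0.27 over 14 alternatives. It was 0.12 without the chosen set of members shared with other cell types. Some log2 fold changes turned sign, among them those of Pdgfra, Apod and Tspan2, which are not near 0. In the deposited TPM table Cspg4 was at 0.016 and 0.017 with pseudocounts of 0.5 and 0.1. Without CCI 2 and CCI 3, Cspg4 was at 0.12, Opalin at 0.093, Vcan at -0.022, Nkx6-2 at 0.032, Pdgfra at -0.053 and Tnr at 0.00043. With the Schwann covariate, Cspg4 was at 0.16, Opalin at 0.053, Vcan at -0.046 and Neu4 at 0.0097. With 1 library left out, Cspg4 ran from -0.079 (without CCI 1) to 0.075 (without CCI 3), Opalin ran from -0.27 (without SHAM 2) to 0.13 (without SHAM 1), Vcan ran from -0.021 (without CCI 3) to 0.11 (without CCI 2), Myrf ran from -0.11 (without CCI 3) to 0.38 (without CCI 2), Tspan2 ran from -0.44 (without SHAM 2) to 0.052 (without SHAM 1), Neu4 ran from -0.21 (without SHAM 2) to 0.092 (without SHAM 1), Apod ran from -0.54 (without SHAM 1) to 0.016 (without SHAM 2) and Bmp4 ran from -0.085 (without SHAM 2) to 0.32 (without SHAM 1). Without turning sign, 12 of the 30 estimates moved by over 1.5 times with the Schwann covariate, 9 without CCI 2 and CCI 3, and 1 (without CCI 3) to 11 (without CCI 2) with 1 library left out. Of all tested genes, 349 were called higher; this was 571 with the likelihood ratio test, 545 with DESeq2, 185 with the covariate, and 61 (without SHAM 1) to 644 (without CCI 1) with 1 library left out. The 35 called lower became 75, 69, 0, and 0 (without SHAM 1) to 119 (without CCI 1); without SHAM 2 the counts were 73 and 5, and without CCI 3 they were 291 and 19. The cause was not tested. No paired analysis was possible because the labels number no replicates; the numbers used here follow accession order and only name libraries. Depth limits Matn4 most, the member with the fewest counts.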
